A study of Mus musculus with 4 samples.

Results

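The 10 genes described here, *Hat1*, *Kat2a*, *Kat2b*, *Kat5*, *Kat6a*, *Kat6b*, *Kat7*, *Kat8*, *Ep300* and *Crebbp*, encode the main histone acetyltransferases (HATs) of the mouse. They were chosen by name, with earlier results of these data known but with no rule on their measured levels, and all 10 were found among the 21957 genes of an RNA-seq table of mouse oocytes. The table holds 4 libraries. GV oocytes are fully grown oocytes still arrested in the first meiotic prophase, with an intact germinal vesicle, and were taken at 0 h of culture. MII oocytes had matured for 12 h in M16 medium without drug and were taken only when the first polar body was out. TubA-10 and TubA-20 oocytes were kept for the same 12 h with tubastatin A, an inhibitor made against the deacetylase HDAC6 and dissolved in DMSO. The sample titles give 10 and 20 μM for these groups, whereas the treatment entered in those same labels is 20 and 11 μM, so the order of the doses rests on the titles. All oocytes came from B6D2F1 (C57BL/6 x DBA) females aged 6 to 8 weeks and primed with PMSG, and were stripped of cumulus cells and pooled. The label of the MII library calls it an embryo. There was 1 library per condition, so no difference could be set against a spread between replicates and none has a p-value.

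HATs move an acetyl group from acetyl-CoA to lysines of the histone tails, which loosens the grip of the histones on DNA and gives bromodomain proteins a surface to bind. The fully grown oocyte transcribes almost nothing, so the level of a transcript between the GV and MII stages reflects stored RNA, its decay and the length of its poly(A) tail. Histones of the oocyte nucleus are acetylated at the GV stage and are deacetylated when meiosis resumes. None of the values below measures HAT protein or histone acetylation.

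Levels are given as FPKM, fragments relative to the length of the transcript and the size of the library, so they can be set side by side between genes. All 12 oocyte markers had at least 12.4 FPKM in every library, though they moved in both directions. *Figla* was at 90.5 FPKM in GV, 70.2 in TubA-10, 41.9 in MII and 12.4 in TubA-20. *Zp2* was at 753 in GV and 293 in TubA-20, and *Oosp1* at 2700 and 6213. The 15 cumulus and granulosa markers summed to 22.7 to 28.7 FPKM, with *Foxl2* at 0 in every library, and their levels did not move together. Of the 15, 6 were higher in GV than in each cultured group, among them *Inha* at 7.50 FPKM in GV and at most 0.314 later, and 5 were lower, among them *Cyp19a1* at 6.14 in GV and 7.42 to 10.3 later. *Nr5a2* was at 9.12 to 11.5 FPKM. The part of these cells in the differences from GV was not tested. The 8 blood markers summed to at most 0.297 FPKM, with all globins at 0. Read counts were not used here, and the steps between low FPKM values gave an estimated depth of 1.72 times GV for TubA-10, 1.63 for MII and 0.894 for TubA-20. This estimate need not match the number of reads sequenced.

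The make-up of the HAT transcripts turned over between the GV oocyte and the oocytes cultured with the higher dose. *Kat8* was the most abundant HAT transcript in GV oocytes, at 217 FPKM, fell in all 3 cultured groups against GV and was lowest in TubA-20, at 47.1. *Crebbp* rose from 144 FPKM in GV and 180 in TubA-10 to 371 in TubA-20 oocytes and was the most abundant HAT transcript in all 3 cultured groups. *Kat6b* rose in each of the 3 cultured groups against GV, from 12.1 FPKM to between 28.5 and 29.5. Against MII oocytes, *Kat8* was the only HAT gene past 2-fold in TubA-20, where 2.44% of all genes were lower and 0.328% higher, and none was in TubA-10, where 0.128% were lower and 0.515% higher. Among genes with at least 5 FPKM in either library, 6.09% were lower and 0.542% higher in TubA-20 against MII. The share lower was larger among short transcripts such as that of *Kat8*, as given below.

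In GV oocytes the order from high to low was *Kat8* (217 FPKM), *Crebbp* (144), *Hat1* (66.0), *Kat7* (24.1), *Kat5* (16.4), *Kat2a* (15.1), *Kat6b* (12.1), *Ep300* (6.31), *Kat6a* (5.15) and *Kat2b* (0.494). *Kat8* lay above 96.1% and *Crebbp* above 94.2% of the genes detected in that library. With 1 library per condition it cannot be said which neighbours in the order differ beyond their spread. In TubA-20 oocytes *Crebbp* (371 FPKM) and *Hat1* (110) stood above *Kat8* (47.1), and *Kat2b* (0.225) was again last. Of the 10 genes, 9 had at least 5 FPKM in every library. *Kat2b* stayed under 1 FPKM in all 4.

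**Figure D1:**
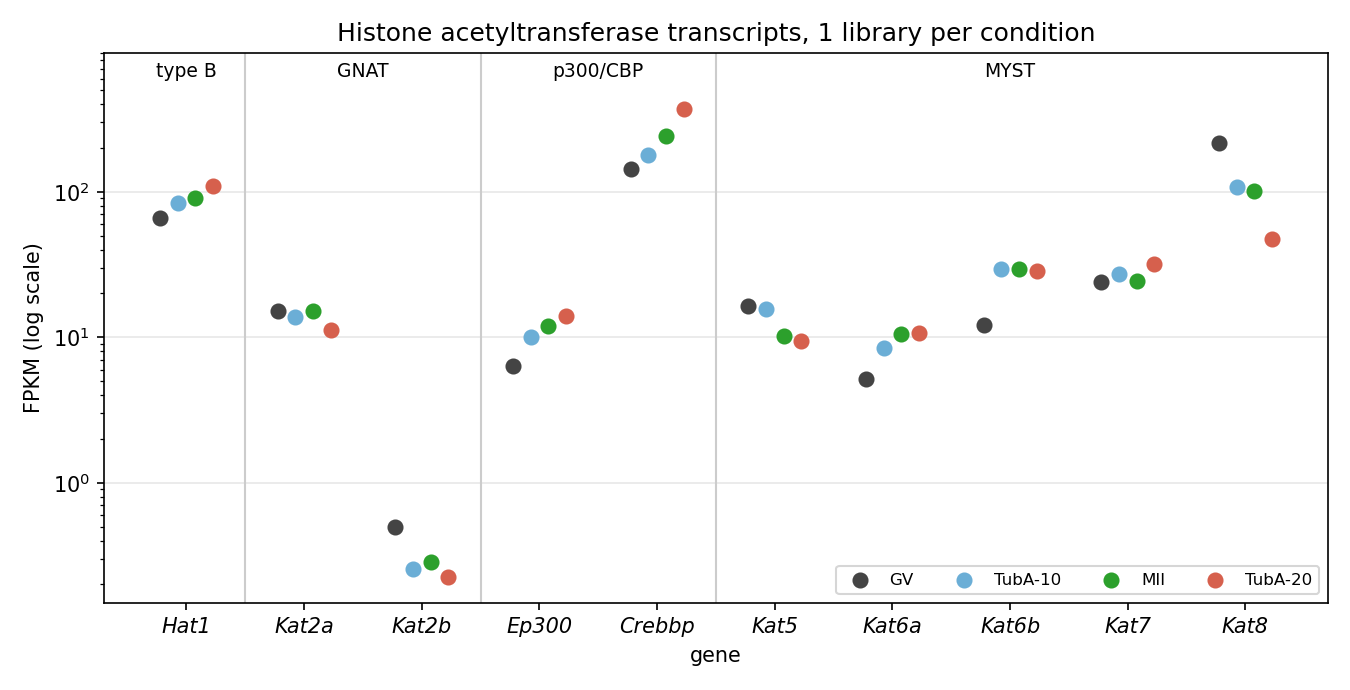
FPKM (log axis) of the 10 HAT genes in the GV, TubA-10, MII and TubA-20 libraries, 1 point per library, grouped by enzyme family. *Kat8* runs down from 217 to 47.1 FPKM and *Crebbp* up from 144 to 371, while *Kat2b* lies under 0.5 FPKM in every library.

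The summed FPKM of the 10 genes was 506 in GV, 476 in TubA-10, 536 in MII and 634 in TubA-20 oocytes, about 0.0812% and 0.101% of all FPKM in GV and TubA-20. Within that sum *Crebbp* made up 28.4% in GV, 37.9% in TubA-10, 45.2% in MII and 58.5% in TubA-20. The share of *Kat8* ran the other way, at 42.8%, 22.5%, 18.9% and 7.42%. *Crebbp* and *Kat8* together with *Hat1* held between 78.0% and 84.3% of the sum in each library. The ratio of *Crebbp* to *Kat8*, which no scaling of a library by a single factor can alter, was 0.665 in GV, 1.68 in TubA-10, 2.39 in MII and 7.89 in TubA-20. It thus moved by 11.9 times across the 4 libraries, for a pair chosen after its values were seen as the genes that moved most in opposite directions, one long and one short. This ratio was not set against genes of like transcript length, and changes against GV moved with length over the whole table, as given below. The ratio moved by 7.68 times for *Hat1* over *Kat8* and 2.30 times for *Kat7* over *Kat5*. Between paralogues it moved by 1.75 times for *Kat2a* over *Kat2b*, 1.48 times for *Kat6b* over *Kat6a* and 1.46 times for *Crebbp* over *Ep300*.

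**Figure D2:**
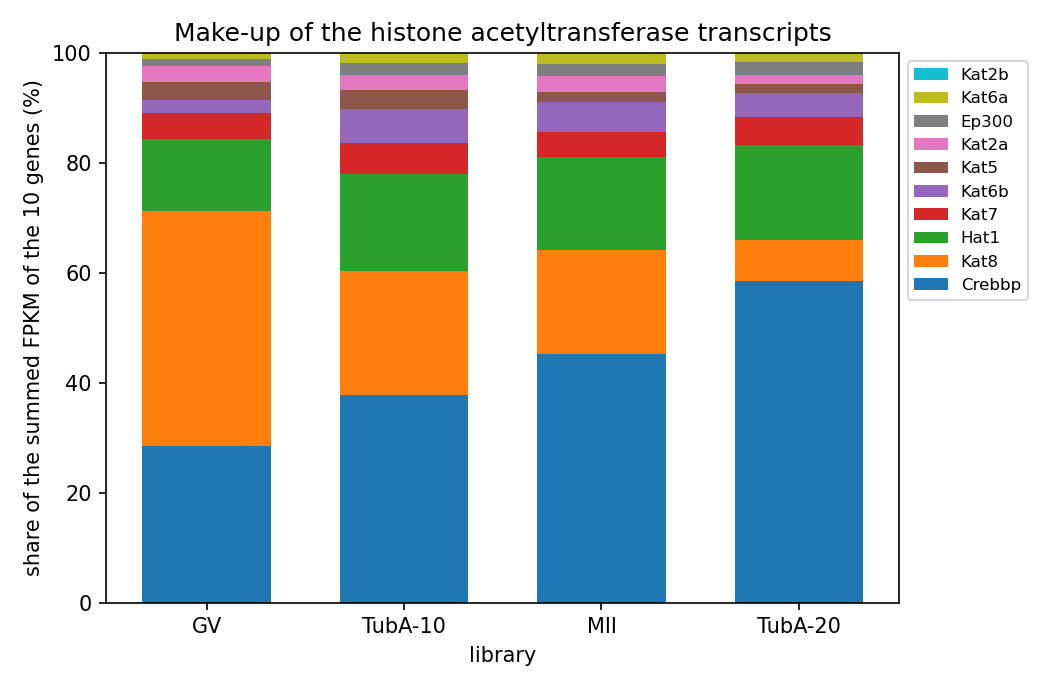
Share (%) of each HAT gene in the summed FPKM of the 10 genes, 1 stacked bar per library. The *Crebbp* part widens from 28.4% in GV to 58.5% in TubA-20 as the *Kat8* part narrows from 42.8% to 7.42%.

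Changes are log2 ratios of FPKM + 1, and a gene was called higher or lower past 2-fold. From GV to MII, *Kat6b* was called higher and *Kat8* lower, 1 of 10 each way, where 3.05% of all genes were called higher and 8.34% lower, or 8.26% and 20.8% of the expressed genes, those that reached 5 FPKM in either library. From GV to TubA-10 the same count and the same 2 genes were called, with 0.742% of all genes higher and 5.6% lower (1.77% and 14.2% of expressed genes). From GV to TubA-20, *Kat6b*, *Ep300* and *Crebbp* were called higher and *Kat8* lower, with 7.61% and 11.7% of all genes. Of the expressed genes, to which 9 of these 10 belong, 20.2% were called higher and 26.8% lower in TubA-20 against GV, so that counts of 3 and 1 in 10 are of the order of that background. Against GV, the median log2 change of the 10 genes was 0.23 in the MII library, 0.25 in TubA-10 and 0.56 in TubA-20, where that of the expressed genes was 0.11, 0.15 and 0.23. Among the 9 expressed members it was 0.45 in MII and 0.32 in TubA-10, and in TubA-20 it was the 0.73 of *Hat1*. Relative to genes of like transcript length, the median of the 10 genes in MII turned to −0.07. In TubA-20 the middle values of the 10 on that footing were 0.09 for *Kat6a* and 0.10 for *Kat7*.

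Against MII oocytes, few genes of the whole table passed 2-fold at the lower dose. In TubA-10, 0 of the 10 HAT genes were called, a count near the background of 1.29% of expressed genes higher and 0.206% lower. The log2 changes ran from −0.42 for *Crebbp*, which lay below 91.9% of the expressed genes, to 0.59 for *Kat5*, which lay above 91.4%. In TubA-20, *Kat8* alone was lower and none was higher, where 6.09% of expressed genes were lower and 0.542% higher. The share lower was larger among transcripts under 2000 bases, to which *Kat8* belongs, as given below. The medians of the 10 genes against MII were −0.07 and −0.01. Between the doses *Crebbp* was higher and *Kat8* lower in TubA-20, with 0.66% of all genes higher and 5.52% lower (1.45% and 14.1% of expressed genes). These comparisons share libraries and are not independent of each other.

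**Figure D3:**
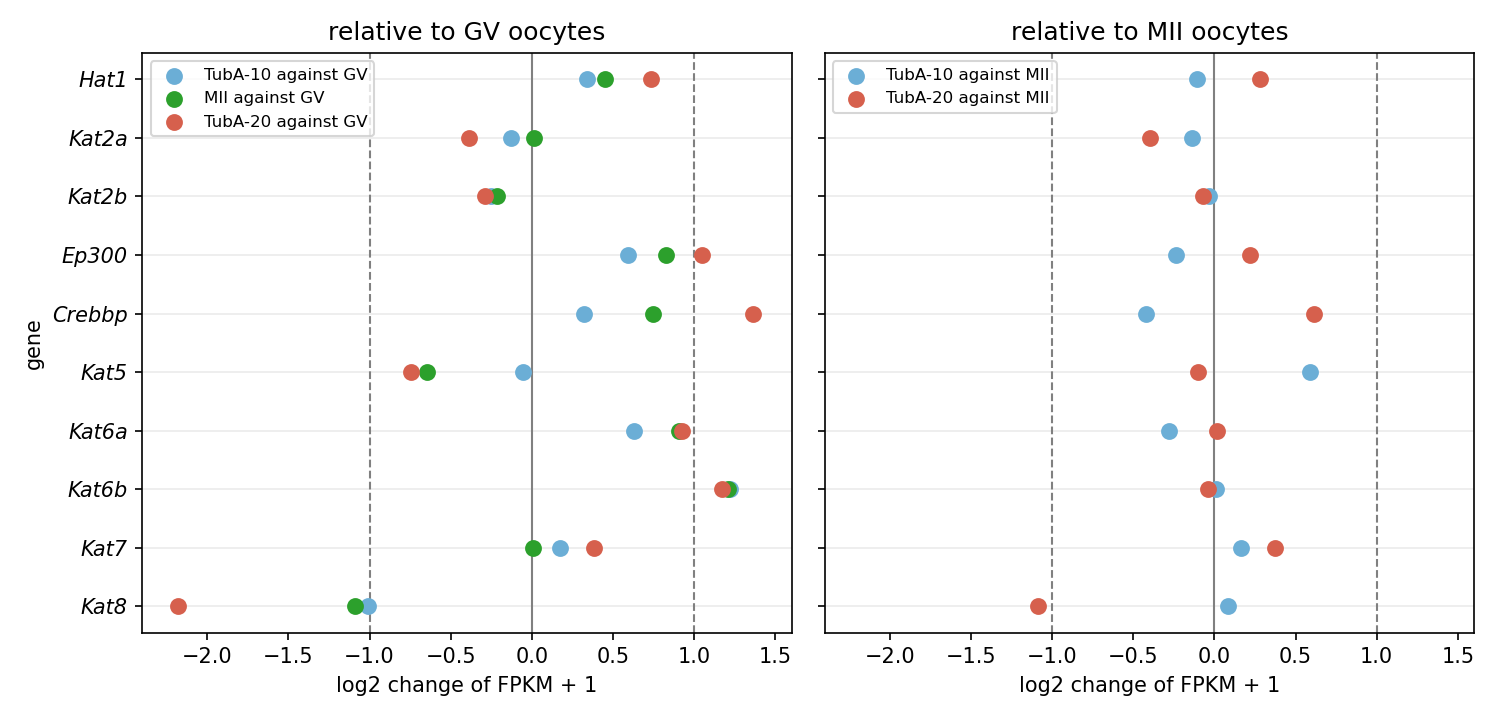
Log2 change of FPKM + 1 for each HAT gene, on the left against GV and on the right against MII oocytes, with dashed lines at 2-fold. *Kat8* in TubA-20 lies past the lower line in both panels, at −2.18 and −1.09, and *Crebbp* is the gene farthest to the right in TubA-20, at 1.36 and 0.61.

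HAT1 is the type B enzyme, which acetylates newly made histone H4 in the cytoplasm before it is built into chromatin. *Hat1* (chr2:71388958-71441622, plus strand, GRCm38) was at 66.0 FPKM in GV, 83.9 in TubA-10, 90.6 in MII and 110 in TubA-20, and no comparison passed 2-fold on the deposited values. Its log2 change was 0.73 in TubA-20 against GV and 0.28 against MII. Of the 6 listed partners of HAT1, RBBP7 is the histone-binding subunit of the enzyme, and *Rbbp7* had 847, 1147, 1339 and 1952 FPKM in the same order. It rose past 2-fold in TubA-20 against GV (1.20) and had a log2 change of 0.54 against MII. *Hat1*, *Rbbp7* and the histone chaperone gene *Asf1b* had their libraries in the order GV, TubA-10, MII, TubA-20 from low to high, as did 28.5% of 7897 genes, and the other 4 listed partners did not. *Ipo4*, an importin that carries newly made histones into the nucleus, fell from 5.37 FPKM in GV to 0.77 in TubA-20 (−1.85).

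KAT2A (GCN5) and KAT2B (PCAF) are paralogous acetyltransferases of the GNAT family and serve as alternative catalytic subunits of the SAGA and ATAC coactivator complexes. *Kat2a* (chr11:100704746-100712465, minus strand) was at 15.1 FPKM in GV, 13.7 in TubA-10, 15.2 in MII and 11.3 in TubA-20. *Kat2b* (chr17:53566861-53672720, plus strand) was at 0.494, 0.256, 0.285 and 0.225 FPKM in that order. *Kat2a* therefore stood 30.5 to 53.5 times above *Kat2b*, and none of their comparisons passed 2-fold. The log2 change of *Kat2a* was −0.39 in TubA-20 against GV and −0.40 against MII. Its value of −0.13 in TubA-10 against GV became 0.12 with equal *Gapdh*, and its 0.01 in MII against GV became −0.11 with the median change set to 0. *Kat2b* lay under the pseudocount of 1 FPKM in every library, and with a pseudocount of 0.01 its change in TubA-20 against GV was −1.10 in place of −0.29.

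CREBBP (CBP) and EP300 (p300) are large paralogous coactivators that bind many transcription factors and acetylate histones at enhancers and promoters. *Crebbp* (chr16:4081328-4213997, minus strand) was at 144 FPKM in GV, 180 in TubA-10, 242 in MII and 371 in TubA-20. *Ep300* (chr15:81585351-81652077, plus strand) was at 6.31, 10.0, 11.97 and 14.1 FPKM in that order. Both genes were lowest in GV and highest in TubA-20, at levels that differed 18.0 to 26.3 times. *Crebbp* rose in TubA-20 against GV (log2 change 1.36) and against TubA-10 (1.04), and its values of 0.75 in MII against GV and 0.61 in TubA-20 against MII did not pass 2-fold. *Ep300* rose in TubA-20 against GV (1.05) and was at 0.83 in MII against GV. The call of *Crebbp* between the doses was lost under each of the 4 other scalings, which gave 0.84 to 0.98, and that of *Ep300* was lost with equal upper quartiles (0.99) and with the median change set to 0 (0.86). Relative to genes of like transcript length, TubA-20 against GV gave 0.53 for *Crebbp* and 0.22 for *Ep300*. On that footing *Crebbp* was at 0.71 between the doses, and none of these values passed 2-fold. In TubA-10 against MII both genes lay on the other side, at −0.42 and −0.24.

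The MYST family holds the remaining 5 members, and their transcripts did not move together. KAT8 (MOF) acetylates histone H4 in the MSL and NSL complexes. *Kat8* (chr7:127912516-127925837, plus strand) was at 217 FPKM in GV, 107 in TubA-10, 101 in MII and 47.1 in TubA-20. The TubA-10 and MII libraries were thus close together, near the middle of the range. *Kat8* fell in MII against GV (−1.09), in TubA-10 against GV (−1.01), in TubA-20 against GV (−2.18) and in TubA-20 against MII (−1.09), and its change in TubA-10 against MII was 0.08. The share of expressed genes that lay below it was 18.9%, 14.0%, 10.5% and 4.65% in these 4 falls, in that order, and 10.6% in its fall from TubA-10 to TubA-20 (−1.17). Relative to genes of like transcript length, its fall from TubA-10 to TubA-20 was −0.81, short of 2-fold. Those in MII and TubA-10 against GV were also short of it, at −0.51 and −0.80. The call in TubA-20 against MII held under all 9 alternatives that give a log2 change, at −1.25 to −1.02. Of these, the 2 filters could not alter it, as they leave the value of a kept gene as it is. The 2 pseudocounts gave −1.10 each. The falls in MII and TubA-10 were lost with equal FPKM sums (−0.96 and −0.93) and with equal *Gapdh* (−0.86 and −0.74), and that in TubA-10 also with equal upper quartiles (−0.98). *Kat8* overlaps *Prss8* on the other strand, which had 3.34 FPKM in GV and 1.94 or less in the cultured groups.

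KAT6A (MOZ) and KAT6B (MORF) are paralogues that acetylate histone H3 together with a BRPF scaffold protein. *Kat6a* (chr8:22859535-22943259, plus strand) was at 5.15 FPKM in GV, 8.49 in TubA-10, 10.5 in MII and 10.7 in TubA-20. *Kat6b* (chr14:21481434-21672478, plus strand) was at 12.1, 29.5, 29.3 and 28.5 FPKM in that order. *Kat6b* rose against GV in MII (1.21), TubA-10 (1.22) and TubA-20 (1.17), and its 3 cultured libraries ran only from 28.5 to 29.5 FPKM. It lay above 97.4%, 99.6% and 87.7% of the expressed genes in these 3 comparisons. Relative to genes of like transcript length its values were 0.49, 0.74 and 0.34, none past 2-fold. *Kat6a* had log2 changes of 0.90, 0.63 and 0.92 in MII, TubA-10 and TubA-20, short of 2-fold with a pseudocount of 1, although the plain ratios of FPKM in MII and TubA-20 to GV were 2.04 and 2.07. With the median change set to 0, the value of *Kat6b* in TubA-20 was 0.98, and the signs of the values near 0 against MII (*Kat6a* 0.02 in TubA-20 and *Kat6b* 0.01 in TubA-10) turned with the scaling.

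KAT5 (TIP60) is the catalytic subunit of the NuA4 complex, and KAT7 (HBO1) acetylates histones H3 and H4 with JADE or BRPF scaffolds. *Kat5* (chr19:5603014-5610237, minus strand) was at 16.4 FPKM in GV, 15.8 in TubA-10, 10.1 in MII and 9.38 in TubA-20. GV and TubA-10 were thus high and MII and TubA-20 low. The log2 change of *Kat5* was −0.65 in MII and −0.75 in TubA-20 against GV and 0.59 in TubA-10 against MII, and none passed 2-fold on the deposited values. Relative to genes of like transcript length, that in TubA-20 against GV was −1.03, past 2-fold. The −0.06 of *Kat5* in TubA-10 against GV became 0.20 with equal *Gapdh*. *Kat5* overlaps *Rnaseh2c* on the other strand, at 41.7, 20.3, 19.5 and 13.7 FPKM, and the study's methods name a strand-specific setting. *Kat7* (chr11:95274259-95310246, minus strand) ran from 24.1 FPKM in GV over 24.3 in MII and 27.3 in TubA-10 to 31.7 in TubA-20.

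The changes against GV moved with the length of the transcript over the whole table. In TubA-20 against GV the median log2 change of the expressed genes was −0.76 for transcripts under 2000 bases, 0.28 for 2000 to 3999, 0.65 for 4000 to 5999 and 0.83 for 6000 bases or more. In MII against GV it was −0.58, 0.16, 0.48 and 0.72. *Crebbp* (10820 bases), *Ep300* (9566), *Kat6a* (9113) and *Kat6b* (6977) are all in the longest class, and in MII against GV they lay 0.02, 0.10, 0.18 and 0.49 above its median. In TubA-20 against GV they lay 0.53, 0.22, 0.09 and 0.34 above its median. Set against that median, no one of the 4 passed 2-fold against GV in any cultured group. *Kat8* (1579 bases) and *Hat1* (1576) are nearly equal in length and in the shortest class, yet their changes minus its median were −1.42 and 1.49 in TubA-20 against GV. For *Kat8* this difference was −0.51 in MII and −0.80 in TubA-10 against GV, short of 2-fold, while *Hat1* passed it in MII as well, at 1.03. In TubA-20 against MII the class medians ran only from −0.07 to 0.10, and *Kat8* and *Crebbp* differed from theirs by −1.02 and 0.53. The share of genes lower past 2-fold still moved with length in that comparison. It was 4.25%, 2.57% and 0.974% in the 3 longer classes, from short to long. Among transcripts under 2000 bases, the class of *Kat8*, it was largest and above the 6.09% of all expressed genes. The call of *Kat8* against MII is thus less rare among transcripts of its length. The part that transcript length has in these changes was not tested. The libraries were made from poly(A)-selected RNA, and the number of transcripts per oocyte, their tail length and their share of the library cannot be told apart.

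**Figure D4:**
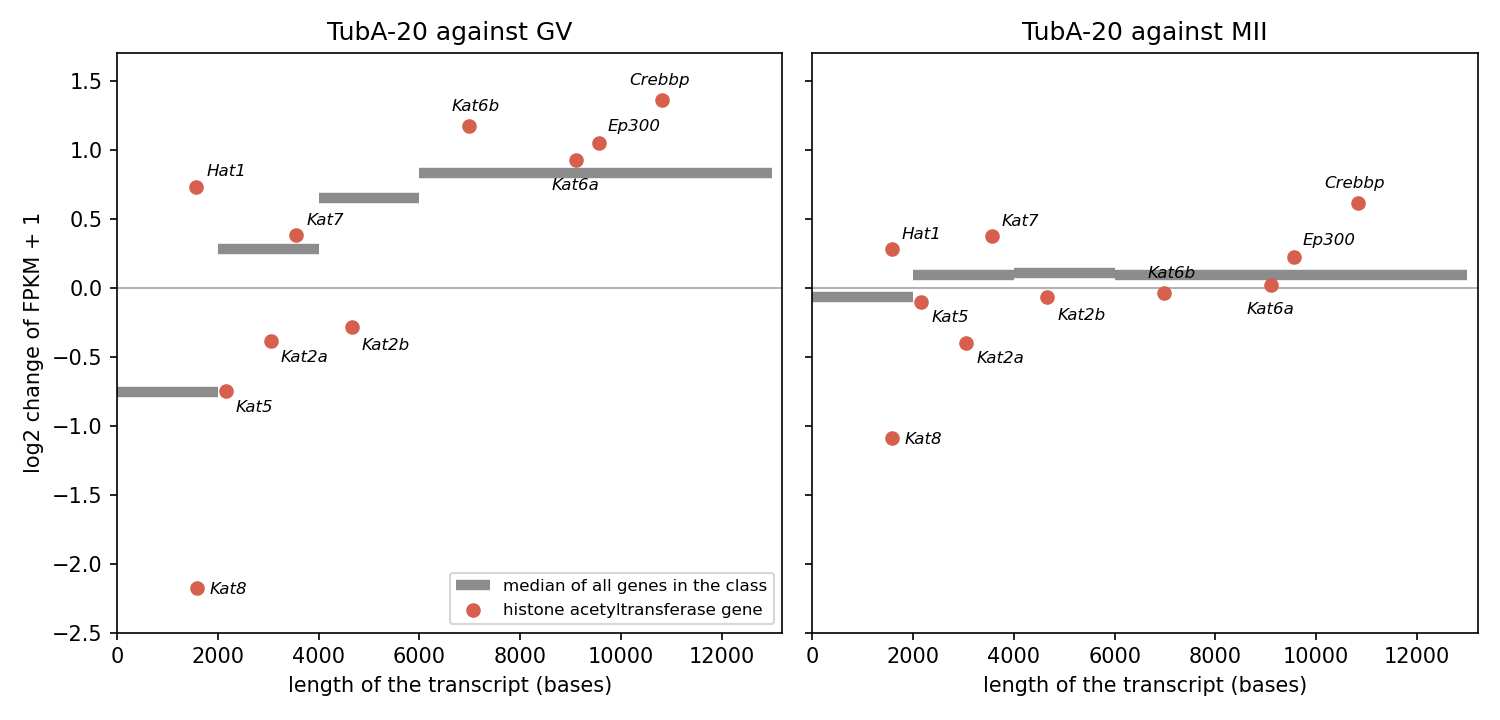
Log2 change of FPKM + 1 of the 10 HAT genes against the length of their principal transcript (bases), for TubA-20 against GV and against MII, with grey bars for the median of all expressed genes in each length class. Against GV the medians climb from −0.76 to 0.83. The 4 longest HAT transcripts lie above the last bar, by 0.09 for *Kat6a* up to 0.53 for *Crebbp*. *Kat8* and *Hat1*, of nearly equal length, lie far below and far above the first bar.

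The 3′ ends are shown because stored oocyte transcripts gain or lose poly(A) there: the polyadenylation signal directs cleavage and tailing, and the cytoplasmic polyadenylation element (CPE), TTTTAT or TTTTAAT in DNA letters, is bound by CPEB and can drive tailing during maturation. Of the 10 members, 7 carry AATAAA or ATTAAA within 40 bases of the annotated end of the principal transcript (GENCODE M21), against 77.1% of 7791 genes with at least 5 FPKM in 1 library. The windows hold 30 bases read from the transcript's strand, with the signal in capitals.
*Kat2a*: ctcggagggaacAATAAAgctttttttttc
*Kat5*: cttgcccccagaAATAAAttgtttatatag
*Kat6a*: taacataaaaaaAATAAAttatgttgagcc
*Kat6b*: attttaacataaAATAAAttatgatgagcc
*Kat7*: ctgtatctactcAATAAAgcatgttctctg
*Ep300*: tacctattgttaAATAAActgtgtgagaca
*Crebbp*: gctggtgtttatAATAAAagctggtaaaac

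No such letters stand in the last 40 bases of *Hat1*, *Kat2b* or *Kat8*. The paralogues *Kat6a* and *Kat6b*, whose levels differed 2.35 to 3.47 times, share a run of 20 bases, CTGTACATTTTAACATAAAA, within their last 100. A CPE occurs anywhere in the 3′ UTR of 7 members, against 59.9% of the 7791 genes, and in 0 copies in *Hat1*, *Kat2a* and *Kat8*, whose 3′ UTRs are short, at 287, 492 and 186 bases. A match describes the letters of the annotated transcript and is not a mapped site.

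The 149 genes of 10 lists, subunits of the HAT complexes and other genes of the acetylation cycle, were read beside the enzymes. Of them 31 were called higher and 23 lower in TubA-20 against GV, 20 and 18 in MII against GV, and 0 and 3 in TubA-20 against MII. Of the listed genes that reached 5 FPKM in either library, 31 of 117 were higher and 21 lower in TubA-20 against GV, where 20.2% and 26.8% of all expressed genes were. In MII against GV 19 of 119 were higher and 17 lower, where 8.26% and 20.8% of expressed genes were, and in TubA-20 against MII 0 and 3 of 113, where 0.542% and 6.09% were. Many listed genes lie under 5 FPKM, so the counts over whole lists below are not on the footing of these shares. Beside the GCN5 and PCAF enzymes, 4 of 27 SAGA and ATAC genes rose and 10 fell from GV to TubA-20, or 4 and 9 of the 21 expressed. Among those that fell were *Sgf29*, the SAGA reader of methylated histone H3, from 362 to 49.3 FPKM, and *Supt20*, a SAGA core subunit, from 146 to 19.9. *Kat14*, a further acetyltransferase of ATAC, was at 122 FPKM in GV, 83.1 in TubA-10, 55.3 in MII and 17.7 in TubA-20. It fell by 1.59 on the log2 scale in TubA-20 against MII, more than *Kat8*.

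In the TIP60 complex 4 of 17 genes rose and 3 fell from GV to TubA-20, all of them among the 16 expressed. Of all expressed genes 20.2% were higher and 26.8% lower in that comparison, the background for each list in this paragraph. *Ruvbl2*, an ATPase of the complex, fell from 185 to 19.0 FPKM (−3.22) and *Dmap1*, a subunit that binds DNMT1, from 145 to 19.0 (−2.87), whereas *Mbtd1*, a reader of methylated histones, rose from 71.9 to 193 (1.41). *Ruvbl2* also fell against MII (−1.29). Around KAT8, 1 of 12 MSL and NSL genes, 11 of them expressed, rose and 0 fell from GV to TubA-20 with a median of 0.77, where *Kat8* itself was at −2.18. Relative to genes of like transcript length *Kat8* was at −1.42, which is not on the footing of the list's unadjusted 0.77. The median of all expressed genes of 4000 to 5999 bases, the class that holds *Msl1*, was 0.65 in that comparison. In MII against GV the list's median of 0.57 became 0.15 relative to genes of like transcript length, and *Kat8* went from −1.09 to −0.51. *Msl1*, the scaffold of the MSL complex, was at 17.8, 24.7, 27.4 and 38.7 FPKM in GV, TubA-10, MII and TubA-20. Among the 9 MOZ, MORF and HBO1 partners, 5 of them expressed, 1 rose and 2 fell. *Brd1*, a BRPF scaffold, rose from 18.4 to 44.6 FPKM (1.23), and *Meaf6*, a small shared subunit, fell from 85.2 to 34.1 (−1.30).

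The readers of acetyl-lysine, 21 bromodomain and YEATS domain genes, had medians above 0 in all 3 comparisons with GV. Of them 20 were expressed in each comparison, and all calls fell among these. From GV to TubA-20, 13 rose and 0 fell, with a median of 1.15 and a background of 20.2% higher. From GV to MII 14 rose and 0 fell, with a median of 1.02 and a background of 8.26%. From GV to TubA-10 1 rose and 0 fell, with a median of 0.61 and a background of 1.77%. *Brdt*, the germ cell member of the bromodomain BET family, had 148 FPKM in GV, 267 in TubA-10, 270 in MII and 354 in TubA-20. Against MII none passed 2-fold in TubA-20 and the list's median was 0.07, which turned to −0.04 to −0.08 with FPKM sums, upper quartiles or *Gapdh* made equal. Set against genes of like transcript length, the medians against GV were 0.32 in TubA-20 and 0.41 in MII.

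Of the 13 p300 and CBP partners 3 rose and 1 fell from GV to TubA-20, or 3 and 0 of the 6 expressed. Of all expressed genes 20.2% were higher and 26.8% lower in that comparison. *Atf1*, a CREB-family factor, rose from 25.0 to 71.3 FPKM (1.48) and *Ncoa1*, a nuclear receptor coactivator, from 3.94 to 8.93 (1.01). Of 18 other acetyltransferases, 17 of them expressed, 4 rose and 2 fell: *Mcm3ap* rose from 23.1 to 54.9 FPKM (1.22), and *Naa10*, which acetylates protein N-termini, fell from 44.8 to 5.13 (−2.90). *Atat1*, the tubulin acetyltransferase that opposes HDAC6, was at 20.8, 26.6, 22.2 and 35.5 FPKM in GV, TubA-10, MII and TubA-20, and no change against GV or MII passed 2-fold. Of 18 deacetylases 0 rose and 4 fell, all 4 among the 10 expressed, where 26.8% of expressed genes were lower. Of 11 genes for acetyl-CoA supply, 7 of them expressed, 1 fell, *Slc25a1*, the mitochondrial citrate carrier, which was at 22.7 FPKM in GV, 24.3 in TubA-10, 22.1 in MII and 8.34 in TubA-20 (−1.31 against MII).

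**Figure D5:**
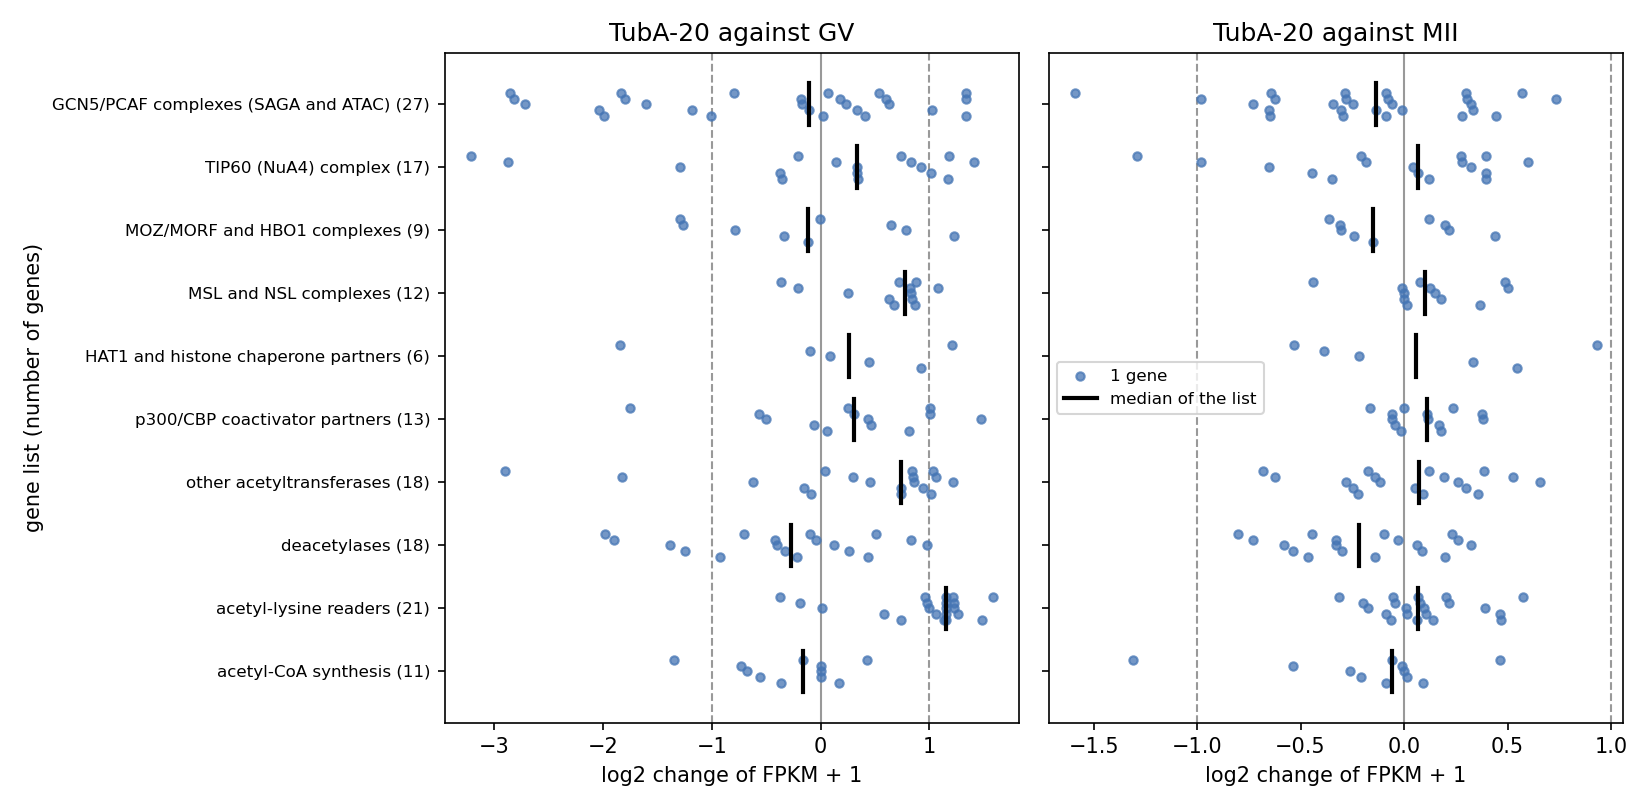
Log2 change of FPKM + 1 for the 10 lists of partner and related genes in TubA-20, against GV on the left and against MII on the right, with 1 point per gene, black bars for list medians and dashed lines at 2-fold. The acetyl-lysine readers sit highest against GV, with a median of 1.15 that drops to 0.07 against MII, and 3 genes lie past the lower line against MII.

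The promoters of 9 members were found in RefSeq (GRCm38.p6), as 13 windows of 300 bases, from 250 before to 50 after the start. Searched on both strands, TATAAA was in 0 of the 13, against 13.6% of all 32851 promoters, and TGACGTCA, the cAMP response element that CREB and its coactivator CBP are known for, in 0, against 1.79%. GGGCGG, the GC box, was in 8 windows of 6 genes, against 35.7%, and CCAAT in 6 windows of 5 genes, against 37.4%. The E-box CACGTG was in 2 windows, against 7.15%, and the NRF1 motif in 1, against 4.6%. Both *Kat6b* windows, which overlap each other, hold 8 GC boxes each, with overlapping matches counted.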

How the data were processed

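Per the labels and the study's methods, RNA from pooled oocytes was selected by oligo(dT), made into stranded libraries and mapped to mm10, and the submitters' processing notes name STAR 2.5.0, Cufflinks and Cuffdiff 2.2.1. The authors deposited FPKM values, scaled by transcript length and mapped fragments. Entries are named by Ensembl identifiers, although the methods speak of UCSC genes. Of 21959 entries, 165 had no symbol, and entries of one symbol were added up. Log2((FPKM + 1)/(FPKM + 1)) and counts past 2-fold were computed per pair of libraries with Python 3.11.15, numpy 2.4.6 and pandas 2.3.3, tested on simulated data. No test across samples was possible with 1 library per condition. Gene positions, lengths and 3′ UTRs come from GENCODE M21 (GRCm38). The number and position of CPEs within each 3′ UTR are not reported here. The members and the gene lists were chosen with earlier results of these data known. Named genes were all members and, per list, at most the 3 largest changes of TubA-20 against MII and against GV among genes with at least 5 FPKM. Alternatives were 2 pseudocounts, 2 filters, 4 scalings, a 1.5-fold threshold, another range for the depth steps, all annotated transcripts and, chosen after seeing the data, changes relative to genes of like transcript length.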

Additional observations from a re-analysis of the deposited data

Results flagged for a closer look

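Against MII oocytes, 7 of the 10 HAT genes had log2 changes of opposite sign in the TubA-10 and TubA-20 libraries, as had 64.5% of the 7445 genes with at least 5 FPKM in MII, TubA-10 or TubA-20. With 1 library each the differences were not tested, and both doses are read against the same MII library. The difference, TubA-20 minus TubA-10, was −1.17 for *Kat8* (0.08 and −1.09), 1.04 for *Crebbp* (−0.42 and 0.61), −0.69 for *Kat5* (0.59 and −0.10), 0.46 for *Ep300* (−0.24 and 0.22), 0.39 for *Hat1* (−0.11 and 0.28), 0.30 for *Kat6a* (−0.28 and 0.02) and −0.046 for *Kat6b* (0.01 and −0.04). The opposite signs of *Kat6a* and *Kat6b* turned on values near 0 that changed sign with the scaling. The 0.08 of *Kat8* in TubA-10 became −0.16 relative to genes of like transcript length, which puts both doses below MII. The estimated depth of the TubA-20 library was 0.894 times and that of TubA-10 1.72 times that of GV, and the medians of the transcript length classes ran from 0.24 to −0.23 in TubA-10 against MII, the shortest class being highest. Their part in these differences was not tested.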

How the results depend on the processing

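Of 468 changes of single HAT genes under the pseudocounts, filters and scalings, 457 kept their sign and 437 also their side of 2-fold. Those under the filters repeat the main value of each kept gene and could change neither, so these counts overstate the agreement. None past 2-fold changed sign, and the largest value whose sign turned was 0.13 in size. Relative to genes of like transcript length, larger values turned: *Crebbp* in TubA-10 against GV from 0.32 to −0.16, *Kat6a* in TubA-20 against TubA-10 from 0.30 to −0.035 and *Kat7* in TubA-10 against GV from 0.17 to −0.021. Another scaling set the median of the 9193 genes with at least 1 FPKM in all 4 libraries, 0.13 in MII and 0.19 in TubA-20 against GV, to between 0 and 0.32 and between 0 and 0.25. In MII against GV the HAT genes called higher, 1, became 2 with either pseudocount or equal FPKM sums, 3 with equal *Gapdh* and 4 at 1.5-fold, and the 1 called lower became 0 with equal FPKM sums, equal *Gapdh* or genes of like length and 2 at 1.5-fold. With like length the 1 higher was *Hat1* (1.03) in place of *Kat6b* (0.49). In TubA-10 against GV the 1 higher became 3 at 1.5-fold and 0 with like length, and the 1 lower became 0 with FPKM sums, upper quartiles or *Gapdh* made equal or with like length. In TubA-20 against GV the 3 higher became 1 with the median change set to 0 (*Crebbp*) or like length (*Hat1*, none of the 3) and 5 at 1.5-fold, and the 1 lower became 2 with a pseudocount of 0.01, at 1.5-fold or with like length. Against MII, 1 gene was higher at 1.5-fold in TubA-10 and 1 in TubA-20, in place of 0. In TubA-20 against TubA-10 the 1 higher became 0 under each of the 4 scalings and with like length, and the 1 lower became 2 at 1.5-fold and 0 with like length. Of the listed partner genes, the 20 higher in MII against GV became 9 with the median change set to 0, 33 with equal *Gapdh*, 48 at 1.5-fold and 7 with like length, and the 31 higher in TubA-20 became 14, 59 and 12 with the median set to 0, at 1.5-fold and with like length. In TubA-20 against MII the 0 higher became 1 and 2 with pseudocounts of 0.1 and 0.01 and 4 at 1.5-fold, and the 3 lower became 9 and 13 with these pseudocounts, 5 under each of the 4 scalings and 14 at 1.5-fold. The cause of these shifts was not tested. Over every annotated transcript the number of HAT genes with a CPE was 5 in place of 7. The depth of TubA-10 was 1.61 in place of 1.72 over a narrower range of low values.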
